A study of Homo sapiens with 9 samples.

Results

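The genes described here encode 8 factors and regulators of the complement system, namely *C1R*, *C1S*, *C3*, *CFB*, *CFI*, *CD46*, *CD55* and *CD59*, out of 60664 genes listed in each count file. They were selected by their function, with the results of the comparisons between these groups already known. Their fold changes and adjusted p-values therefore describe these libraries and are not independent evidence. RNA-seq was performed on MDA-MB-231 cells, an established line of triple-negative human breast adenocarcinoma, after 6 days in medium of set viscosity, in 3 groups of 3 libraries each. Scramble control (SC) cells, labelled WT by genotype, were kept in medium of 0.77 cP or of 8 cP, and cells labelled TRPV4 knockdown (shTRPV4) were kept at 8 cP. According to the study's methods, viscosity was raised with methylcellulose. In these libraries the effects of the polymer and of viscosity therefore cannot be told apart. Differences given below as with viscosity are those of SC cells at 8 cP against 0.77 cP. Both kinds of cell carry a hairpin in the same puromycin-selected lentiviral backbone, non-targeting in SC cells and directed at *TRPV4*, a calcium-permeable ion channel, in shTRPV4 cells. The comparison of SC cells at 8 cP with those at 0.77 cP asks what prolonged high viscosity changes, and that of shTRPV4 with SC cells at 8 cP asks what depends on the channel. The methods name 1 hairpin sequence against *TRPV4* for experiments such as this one, so its effects on other genes cannot be told apart from those of the knockdown. Both comparisons use the same SC 8 cP libraries, and knockdown cells in low-viscosity medium are not analysed here. Whether the effect of viscosity itself differs between SC and shTRPV4 cells was therefore not tested.

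Complement is a cascade of proteins, most of them made by the liver and released into plasma, that marks surfaces for clearance and can end in a pore in the target membrane. Antibody-bound C1q activates the proteases C1r and C1s, which open the classical pathway. Factor B joins activated C3 in the protease complex of the alternative pathway, and all routes meet in the cleavage of C3. The soluble protease factor I holds the cascade back by inactivating C3b and C4b, with the help of cofactors such as CD46. CD55 takes the C3 convertases apart, and CD59 blocks the assembly of the pore. Tumour cells are known to make several of these components and to carry the membrane regulators at high levels.

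The libraries held between 64571681 and 103518036 counted read pairs, and levels are given as CPM, counts scaled to the library total, of which 0.109 corresponds to 10 counts at the median depth. All 8 markers chosen for MDA-MB-231 cells were high, with a summed level of 6153 to 7450 CPM. Of the luminal breast markers, *ESR1*, *PGR* and *FOXA1* reached at most 6 counts in any library, *CDH1* 12, and *EPCAM* and *GATA3* were present at a mean of 18.4 and 13.6 CPM. Liver markers summed to at most 0.312 CPM, with *APOA2*, *APOB* and *TTR* at 0. Macrophage markers summed to 11.7 to 13.02 CPM in SC cells at 0.77 cP, 10.5 to 11.6 CPM in SC cells at 8 cP and 8.03 to 8.63 CPM in shTRPV4 cells, nearly all of it from *CD14* and *CSF1R*. *CD163* reached at most 1 count, *PTPRC* 17, *CD68* 13 and *MRC1* 12. *TRPV4* had 40, 28 and 54 counts in SC cells at 0.77 cP, 64, 45 and 24 in SC cells at 8 cP and 7, 1 and 13 in shTRPV4 cells. Its log2 fold change between shTRPV4 and SC cells at 8 cP was -2.51 (SE 0.50, adjusted p = 0.00219). Here and below, adjusted p-values come from the quasi-likelihood test of edgeR, corrected after Benjamini and Hochberg over the 18264 genes that passed a filter on low counts. A gene is called higher or lower where that value is under 0.05. *TRPV4* passed the filter through the SC groups, as only replicate 3 of the shTRPV4 libraries reached 0.109 CPM. The labels do not say whether the 3 libraries of a group came from separate cultures, so the p-values measure only the spread between these libraries. A lower level in such bulk RNA cannot be divided into fewer expressing cells and less RNA per cell.

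The membrane regulators dominated. Per kilobase of annotated exon, *CD59* stood highest at 0.77 cP in SC cells with 37.2 ± 1.56 CPM per kb (SD, n = 3), followed by *CD55* with 23.3 ± 1.71 and *CD46* with 13.2 ± 0.782. The secreted members followed far below, *C1R* with 1.88 ± 0.403, *CFB* with 0.639 ± 0.244, *C3* with 0.248 ± 0.0581, *C1S* with 0.198 ± 0.0580 and *CFI* with 0.0597 ± 0.0196 CPM per kb. *CD46*, *CD55* and *CD59* together made up 95.5 to 97.1% of the summed level of all 8 genes in every library. The order of the membrane regulators and the place of *C1R* and *CFI* were the same in the 3 groups, but neighbouring levels within the secreted components were not always apart. *C3* and *C1S* differed by less than their spread in SC cells at both viscosities, with 0.146 ± 0.0172 and 0.149 ± 0.0229 CPM per kb at 8 cP. In shTRPV4 cells *C3*, with 0.464 ± 0.148, and *CFB*, with 0.457 ± 0.0697, lay within each other's spread. These levels depend on the exon length used and on how reads over shared exons were counted. Of the exon bases of *CFB*, 42.3% are shared with a gene that spans the *C2* and *CFB* locus, and of those of *CFI*, 29.4% with an overlapping gene on the same strand. Both of these other genes were listed at 0 counts in every library.

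**Figure D1:**
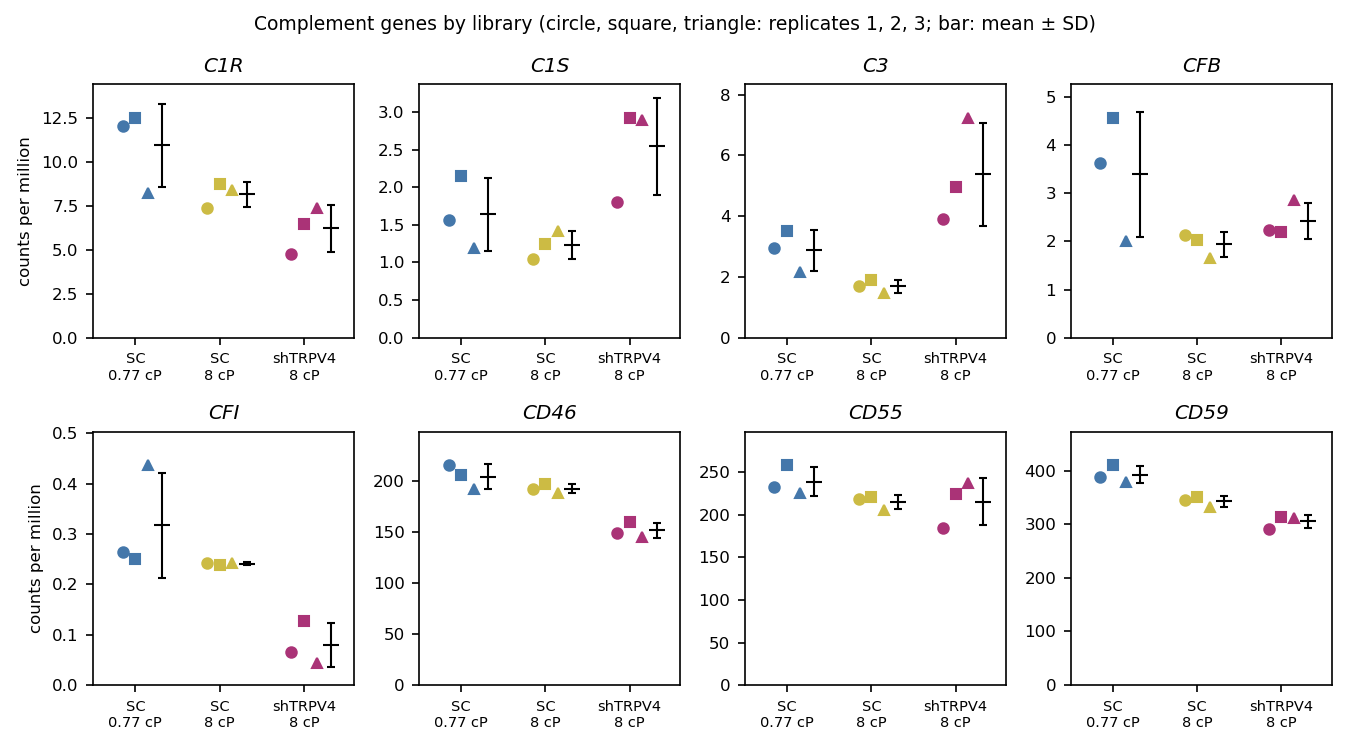
Level of each complement gene in CPM (vertical axes from 0) in the 9 libraries, by group; symbols mark replicates 1, 2 and 3 and the bar gives the mean ± SD of 3 libraries. *C3* and *C1S* lie above SC 8 cP in every shTRPV4 library, whereas *CFI*, *CD46* and *CD59* lie below it.

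Promoter windows of the members held different motifs. RefSeq promoter windows of assembly GRCh38.p14 were matched for 6 of the 8 genes, not for *C3* and *C1S*, and the 250 bases before the RefSeq start were searched on both strands for 6 motifs. A RefSeq start can differ from the outermost start printed below for the gene, so each of the 6 genes has a window that lies inside or overlaps its printed span. The *CD59* windows with C/EBP and AP-1 matches lie inside it. The motifs were the interferon-stimulated response element (ISRE, a pair of GAAA runs with any 2 bases between them), the STAT site GAS (TTCNNNGAA), the C/EBP site (TTGCNNAA), the AP-1 site (TGANTCA), the TATA box (TATAAA) and the kappaB motif. The windows of *CFB* and *CFI* are shown because they lie at the ends of the range, with motif matches in capitals, 5′ to 3′ on the strand of the gene.
CFB, chr6:31945845-31946094, plus strand: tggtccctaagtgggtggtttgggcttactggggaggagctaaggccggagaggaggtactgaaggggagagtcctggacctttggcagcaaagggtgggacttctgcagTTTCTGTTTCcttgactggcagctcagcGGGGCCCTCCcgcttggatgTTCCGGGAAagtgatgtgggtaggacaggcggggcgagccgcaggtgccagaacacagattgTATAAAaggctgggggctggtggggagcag
CFI, chr4:109802000-109802249, minus strand: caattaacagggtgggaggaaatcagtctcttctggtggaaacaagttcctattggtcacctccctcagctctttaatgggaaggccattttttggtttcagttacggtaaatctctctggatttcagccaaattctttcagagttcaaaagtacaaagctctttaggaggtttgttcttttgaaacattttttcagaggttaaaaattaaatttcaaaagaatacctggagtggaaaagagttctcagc
The *CFB* window held 4 matches, in order an ISRE that starts 140 bases before the RefSeq start on the other strand, a kappaB match at 112 bases, a GAS at 92 bases and a TATA box at 30 bases, without overlap. Of 35116 promoter windows of the same length, 3.02% hold the ISRE, 6.57% the GAS, 9.96% the kappaB motif and 10.7% the TATA box. The *CFI* window held none of the 6 motifs, and neither did those of *CD46* and *CD55*. *C1R* had a C/EBP match in each of its 2 windows and a GAS in 1 of them, and the 4 windows of *CD59* held GAS, C/EBP and AP-1 matches, motifs found in 6.57%, 9.05% and 6.57% of all windows. These are letter matches, and binding was not measured.

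*C1R* (ENSG00000159403, chr12:7080214-7092540, minus strand) and *C1S* (ENSG00000182326, chr12:6988259-7071032, plus strand) encode the paired proteases of the C1 complex and lie next to each other on GRCh38. *C1R* stood at 12.0, 12.5 and 8.25 CPM in SC cells at 0.77 cP, at 7.35, 8.74 and 8.38 CPM in SC cells at 8 cP, and at 4.76, 6.49 and 7.39 CPM in shTRPV4 cells. Neighbouring groups overlapped, but every shTRPV4 library lay below every SC library at 0.77 cP. *C1S* stood at 1.57, 2.15 and 1.20 CPM in SC cells at 0.77 cP, 1.04, 1.24 and 1.42 CPM in SC cells at 8 cP and 1.80, 2.93 and 2.90 CPM in shTRPV4 cells. All shTRPV4 libraries were above all SC libraries at 8 cP for *C1S*, while 1 of them lay within the range of SC cells at 0.77 cP. For *C1R* the log2 fold change was -0.42 (SE 0.15, adjusted p = 0.0675) with viscosity and -0.39 (SE 0.16, adjusted p = 0.0923) between shTRPV4 and SC cells at 8 cP, neither past the threshold. It was -0.81 (SE 0.16, adjusted p = 0.000640) between the shTRPV4 and the SC 0.77 cP libraries. *C1S* was 2.06-fold higher in shTRPV4 than in SC cells at 8 cP, or 1.04 on the log2 scale (SE 0.22, adjusted p = 0.00353). It gave -0.39 (SE 0.23, adjusted p = 0.252) with viscosity.

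The RNA levels of the 2 C1 protease genes were set against each other as a ratio, and protein was not measured. The size of the ratio depends on the exon lengths used, but its log2 differences between groups do not. Within a library, the level of *C1R* per exon kb was 8.32 to 11.0 times that of *C1S* in SC cells at 0.77 cP and 8.43 to 10.1 times in SC cells at 8 cP, but 3.17 to 3.78 times in shTRPV4 cells. The mean ratio was 9.71 ± 1.33, 9.52 ± 0.945 and 3.53 ± 0.319 (SD, n = 3). The ratio was lower in each shTRPV4 library than in each SC library, with a log2 difference of -1.43 against SC cells at 8 cP. For this a 2-sided exact permutation test gave p = 0.1, the smallest value that 3 against 3 libraries allow. With viscosity in SC cells the ratios of the groups overlapped, with a log2 difference of -0.02 (exact permutation p = 1). In these libraries, 11.6% of the exon bases of *C1R* are shared with *C1RL*, its paralogue.

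**Figure D2:**
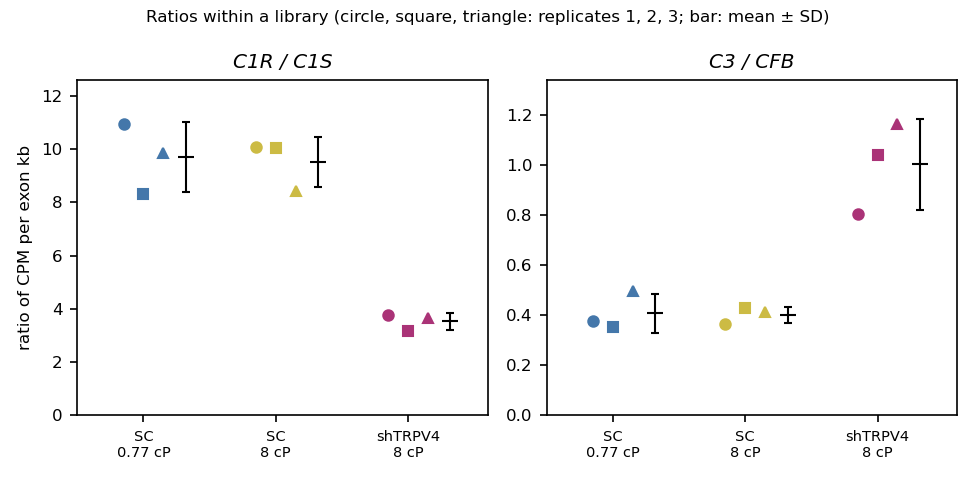
Ratio of the levels per exon kb of *C1R* to *C1S* and *C3* to *CFB* within each library (vertical axes from 0), by group, with the mean ± SD of 3 libraries. The ratio of *C1R* to *C1S* falls from 8.32 or more in SC libraries to at most 3.78 in shTRPV4 libraries, and that of *C3* to *CFB* is highest in shTRPV4 libraries.

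*C3* (ENSG00000125730, chr19:6677704-6730562, minus strand), the component on which all pathways converge, moved in opposite directions in the 2 comparisons. It stood at 2.95, 3.51 and 2.17 CPM in SC cells at 0.77 cP, at 1.69, 1.88 and 1.49 CPM in SC cells at 8 cP and at 3.90, 4.97 and 7.24 CPM in shTRPV4 cells, and no 2 groups overlapped. *C3* was lower at 8 cP than at 0.77 cP in SC cells with a log2 fold change of -0.75 (SE 0.21, adjusted p = 0.0235). It was 3.18-fold higher in shTRPV4 than in SC cells at 8 cP, or 1.67 on the log2 scale (SE 0.21, adjusted p = 5.1e-05). The level in shTRPV4 cells at 8 cP also exceeded that of SC cells at 0.77 cP, by 0.92 (SE 0.20, adjusted p = 0.00165) on the log2 scale. Of its exon bases, 11.7% are shared with a non-coding gene listed at 0 to 11 counts. The viscosity difference of *C3* lost its call when any of 4 libraries was left out in turn (adjusted p between 0.0618 and 0.109). Its log2 fold change stayed between -0.917 and -0.589 in the 9 fits with 1 library left out. The 4 fits without the call gave 1409 to 2750 calls over all genes, against 3518 with all libraries. The difference between shTRPV4 and SC cells was called under every alternative tried.

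*CFB* (ENSG00000243649, chr6:31945650-31952086, plus strand), which supplies the protease of the alternative pathway, was lower with viscosity. In the fit of all 9 libraries it was not called in either comparison of shTRPV4 cells. Its level was 3.62, 4.57 and 2.003 CPM in SC cells at 0.77 cP, 2.12, 2.03 and 1.65 CPM in SC cells at 8 cP and 2.23, 2.20 and 2.85 CPM in shTRPV4 cells. The SC groups overlapped, because the third library at 0.77 cP lay among those at 8 cP. All shTRPV4 libraries lay above all SC libraries at 8 cP. The log2 fold change was -0.79 (SE 0.22, adjusted p = 0.0228) with viscosity and 0.33 (SE 0.23, adjusted p = 0.351) between shTRPV4 and SC cells at 8 cP. It was -0.46 (SE 0.22, adjusted p = 0.106) between the shTRPV4 and the SC 0.77 cP libraries. This last difference was called in 2 of 16 alternatives, with no filter on low counts and without SC 0.77 cP replicate 3. The 95% confidence interval of the value at 8 cP, -0.16 to 0.81, includes 0. Within a library, *C3* per exon kb was 0.408 ± 0.0778 of *CFB* in SC cells at 0.77 cP and 0.401 ± 0.0322 at 8 cP, but 1.00 ± 0.184 in shTRPV4 cells (n = 3 each). All shTRPV4 libraries were above all SC libraries (exact permutation p = 0.1 against SC 8 cP). The call of *CFB* with viscosity was lost when any of 3 libraries was left out, with an adjusted p of 0.1002 to 0.126.

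*CFI* (ENSG00000205403, chr4:109731008-109802150, minus strand), the protease that inactivates C3b and C4b, was the member with the lowest level and with the lowest fold in shTRPV4 cells. It had 25, 16 and 45 counts in SC cells at 0.77 cP, 24, 23 and 22 in the SC 8 cP libraries and 6, 10 and 4 in the shTRPV4 libraries. These are 0.265, 0.249 and 0.438 CPM, 0.243, 0.238 and 0.242 CPM, and 0.0655, 0.128 and 0.0442 CPM. Every shTRPV4 library was below every SC library. The log2 fold change was -1.62 (SE 0.44, adjusted p = 0.0170) between shTRPV4 and SC cells at 8 cP, or 0.325 of the SC level. It was -2.04 (SE 0.43, adjusted p = 0.00132) between the shTRPV4 and the SC 0.77 cP libraries. With viscosity in SC cells it was -0.42 (SE 0.37, adjusted p = 0.462), with a 95% confidence interval of -1.19 to 0.36. *CFI* passed the filter on low counts through the SC groups, as only 1 of 3 shTRPV4 libraries reached the filter level, and it is absent from a fit of genes with at least 10 counts in every library. Leaving out shTRPV4 replicate 1 or 3 ended the call against SC cells at 8 cP, with an adjusted p of 0.0601 and 0.0704.

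The membrane regulators changed little in size but were measured precisely. *CD46* (ENSG00000117335, chr1:207752037-207795513, plus strand), the cofactor of factor I on the cell surface, stood at 216, 206 and 192 CPM in SC cells at 0.77 cP, at 193, 197 and 188 CPM in SC cells at 8 cP and at 149, 160.4 and 146 CPM in shTRPV4 cells. All shTRPV4 libraries were below all SC libraries, while the SC groups overlapped. The log2 fold change was -0.34 (SE 0.05, adjusted p = 0.000253) between shTRPV4 and SC cells at 8 cP, a change in level of -21.2%. It was -0.43 (SE 0.05, adjusted p = 9.3e-06) between the shTRPV4 and the SC 0.77 cP libraries, against -0.09 (SE 0.05, adjusted p = 0.252) with viscosity. The 2 differences of shTRPV4 cells stayed past the threshold under every alternative tried.

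*CD59* (ENSG00000085063, chr11:33703010-33736479, minus strand), the inhibitor of the membrane pore, was lower at each step. It stood at 389, 411 and 379 CPM in SC cells at 0.77 cP, at 345, 352 and 332 CPM in SC cells at 8 cP and at 291.5, 313 and 312 CPM in shTRPV4 cells, with no overlap between any 2 groups. The log2 fold change was -0.20 (SE 0.05, adjusted p = 0.0100) with viscosity and -0.17 (SE 0.05, adjusted p = 0.0214) between shTRPV4 and SC cells at 8 cP. It was -0.36 (SE 0.05, adjusted p = 2.1e-05) between the shTRPV4 and the SC 0.77 cP libraries, a change in level of -22.2%, which was called under every alternative. The viscosity difference lost its call without SC 0.77 cP replicate 2 or SC 8 cP replicate 3 (adjusted p = 0.0703 and 0.0780), and that between shTRPV4 and SC cells at 8 cP without SC 8 cP replicate 1 or 2 or shTRPV4 replicate 1 (adjusted p between 0.0661 and 0.104).

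*CD55* (ENSG00000196352, chr1:207321519-207386804, plus strand), which speeds the decay of the C3 convertases, was the only membrane regulator of the 3 without a call in any comparison in the fit of all 9 libraries. It stood at 233, 259 and 226 CPM in SC cells at 0.77 cP, at 219, 221 and 205.5 CPM in SC cells at 8 cP and at 184, 225 and 238 CPM in shTRPV4 cells, which spread around the SC 8 cP libraries on both sides. The log2 fold change between shTRPV4 and SC cells at 8 cP was 0.00 (SE 0.08, adjusted p = 0.975), with a 95% confidence interval of -0.16 to 0.17, and its sign changed with the scaling and with the library left out. With viscosity it was -0.15 (SE 0.08, adjusted p = 0.180), although all SC libraries at 8 cP were below all at 0.77 cP. The ratio of *CD46* to *CD55* per exon kb was 0.593 ± 0.0118 in SC cells at 8 cP and 0.471 ± 0.0657 in shTRPV4 cells (n = 3), without overlap (exact permutation p = 0.1). That of *CD59* to *CD55*, 1.55 ± 0.0176 and 1.39 ± 0.135, overlapped (exact permutation p = 0.2).

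**Figure D3:**
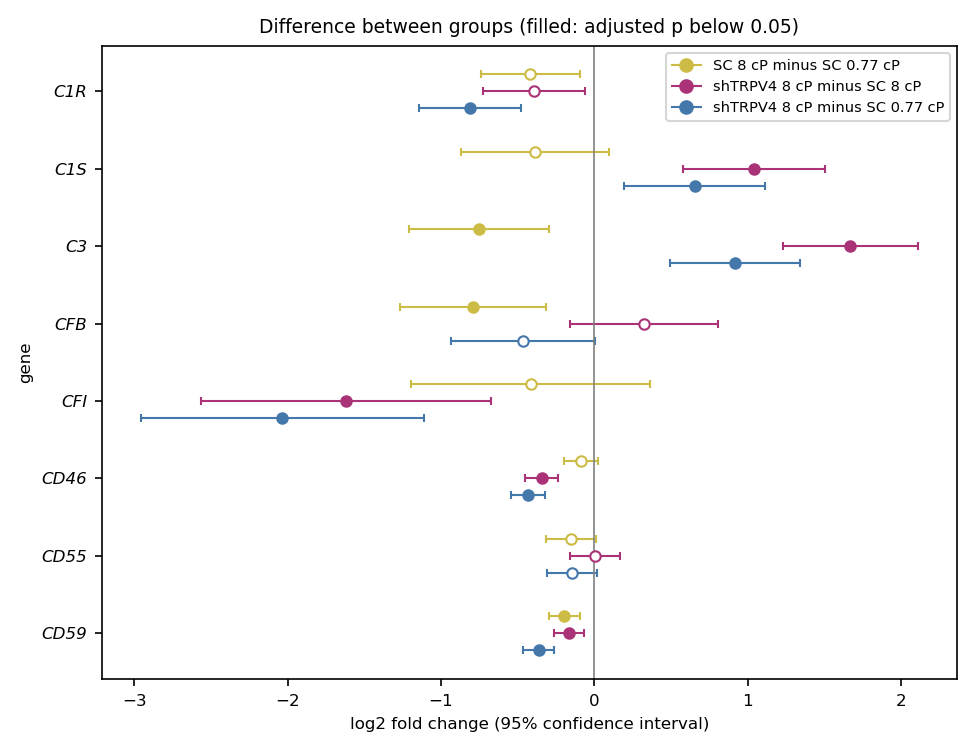
Log2 fold change of each gene in the 3 comparisons (horizontal axis), with its 95% confidence interval from edgeR; filled points have an adjusted p below 0.05. *C3* and *C1S* lie to the right of 0 in both comparisons of shTRPV4 cells and *CFI*, *CD46* and *CD59* to the left, and with viscosity all 8 points lie to the left, 3 of them filled.

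Over the 8 genes, viscosity in SC cells gave 3 calls, all lower (*CFB*, *C3* and *CD59*), where 19.3% of all genes tested were called, 9.57% higher and 9.69% lower. The median log2 fold change of the 8 genes was -0.40, against -0.01 over all genes tested, and 4 of the 8 did not overlap between the groups, against 38.4% of all genes tested. Between shTRPV4 and SC cells at 8 cP, 5 of the 8 were called, 2 higher (*C3* and *C1S*) and 3 lower (*CFI*, *CD46* and *CD59*), where 20% of all genes were called, 9.02% higher and 11% lower. *CFI* is counted here although it entered the test through the SC groups. In this comparison 6 of the 8 did not overlap, *CFI* among them, against 36.3% of all genes. The median absolute log2 fold change was 0.37 for these genes and 0.15 for all genes tested. Between the shTRPV4 and the SC 0.77 cP libraries, 6 of the 8 were called, 2 higher and 4 lower, where 42.4% of all genes were called, 20.4% higher and 22% lower. Here 5 of the 8 did not overlap, against 50.6% of all genes, and *CFI* is again among the genes counted. Because the 8 genes were selected with these results known, their shares are not evidence that complement genes stand apart. The split of all genes between shTRPV4 and SC cells at 8 cP was 1647 higher and 2002 lower, but 2082 higher and 1627 lower when libraries were scaled by their totals alone.

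The spread within groups was shared between members. At 0.77 cP, the third SC library held the lowest level of 7 of the 8 genes, all but *CFI*, and the second the highest of 6. Over all genes tested, the third library held the lowest value for 35.1% and the second the highest for 32.2%. Among shTRPV4 libraries, the first held the lowest level of 5 of the 8 genes, and of 37.2% of all genes tested. Without SC 0.77 cP replicate 2 or without SC 8 cP replicate 3, none of the 8 genes was called by edgeR with viscosity. Without SC 0.77 cP replicate 1 *CD59* alone was, and without shTRPV4 replicate 1 the count rose to 5 with *C1R* and *CD55*. Calls over all genes moved in the same fits. They numbered 3518 with all libraries, 1927 without SC 0.77 cP replicate 2 and 1418 without SC 8 cP replicate 3. Without SC 0.77 cP replicate 1 they numbered 1409, and without shTRPV4 replicate 1 they numbered 4349. The member calls between shTRPV4 and SC cells at 8 cP numbered 3 without shTRPV4 replicate 1, when *CFI* and *CD59* were lost. Over all genes that fit gave 2965 calls, against 3649 with all libraries.

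Of 53 other genes of the complement system, 20 passed the filter. The other 33 were at or near 0, 12 of them with no count in any library and 30 with at most 10 counts in any. The classical recognition protein C1q (*C1QA*, *C1QB* and *C1QC*), the pore components *C8A* and *C8B* and the receptor *CR1* were at 0 counts throughout. Viscosity in SC cells gave 7 calls among the 20, 2 higher and 5 lower, where 19.3% of all genes were called, and their median log2 fold change was -0.16. *ITGB2*, the shared beta chain of the complement receptors CR3 and CR4, was lower with a log2 fold change of -0.40 (adjusted p = 0.00479), *VTN*, encoding the pore inhibitor vitronectin, with -1.66 (adjusted p = 0.0109), and *C1RL* with -0.56 (adjusted p = 0.0121). The alpha chains of CR3 and CR4, *ITGAM* and *ITGAX*, reached at most 4 counts in any library and were not tested. *CALR*, a C1q-binding chaperone, and *CFD*, the protease that cleaves factor B, gave -0.15 (adjusted p = 0.0296) and -0.30 (adjusted p = 0.0375). *CFD* lost this call in 7 of 16 alternatives, among them the replicate number as a block. *C1QBP*, which encodes a C1q-binding protein, was higher by 0.18 (adjusted p = 0.0197). *C4BPB* was the other gene called higher. Without SC 0.77 cP replicate 1 only 1 of these genes, *ITGB2*, was called, where calls over all genes went from 3518 to 1409.

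Between shTRPV4 and SC cells at 8 cP, 8 of the 20 other genes were called, 3 higher and 5 lower, where 20% of all genes were called. *C4BPB*, the beta chain of the C4b-binding protein, was higher, at 28.4, 26.1 and 27.2 CPM against 39.6, 44.7 and 47.4 CPM, with a log2 fold change of 0.69 (adjusted p = 5.0e-06). The alpha chain *C4BPA*, which carries its C4b-binding sites, was at 0 counts in all libraries. *VTN* had 10, 39 and 23 counts in the SC 8 cP libraries and 65, 60 and 139 in the shTRPV4 libraries, for a log2 fold change of 1.99 (adjusted p = 0.00243). *CLU*, encoding the pore inhibitor clusterin, gave -0.23 (adjusted p = 0.00835).

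The alternative pathway genes *CFP*, which encodes properdin, the stabilizer of its convertase, and *CFD* were both lower in shTRPV4 cells, with log2 fold changes of -0.55 (adjusted p = 0.000747) and -0.33 (adjusted p = 0.0230). *CFD* lost this call when any of 4 libraries was left out, with an adjusted p of up to 0.0820. Of the exon bases of *CFP*, 49.0% are shared with a non-coding gene listed at 0 to 1 counts. Of those of *CFD*, 14.0% are shared with *MED16* on the other strand, which had 5697 to 9245 counts. *ITGB2* gave -0.94 (adjusted p = 2.8e-06). *C2*, the classical counterpart of *CFB* and its neighbour on chromosome 6, was higher with 0.50 (adjusted p = 0.0105). Of its exon bases, 25.5% are shared with the gene that spans the *C2* and *CFB* locus. *C4A* and *C4B* are near-identical copies whose reads the counting could split or drop, so their values, neither called, are uncertain. *CFP* and *ITGB2* are also known from macrophages. The samples are of a tumour cell line, in which *CD163* reached at most 1 count and *PTPRC* 17. The macrophage markers with a level in this line, *CSF1R* and *CD14*, gave -0.50 (adjusted p = 0.000652) and -0.29 (adjusted p = 0.105) in the same comparison. Whether the lower *CFP* and *ITGB2* are linked to these 2 genes was not tested. Between the shTRPV4 and the SC 0.77 cP libraries, 11 of the 20 were called, 2 higher, *C4BPB* and *C1QBP*, and 9 lower, where 42.4% of all genes were called. *ITGB2* gave a log2 fold change of -1.34 (adjusted p = 2.0e-08).

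**Figure D4:**
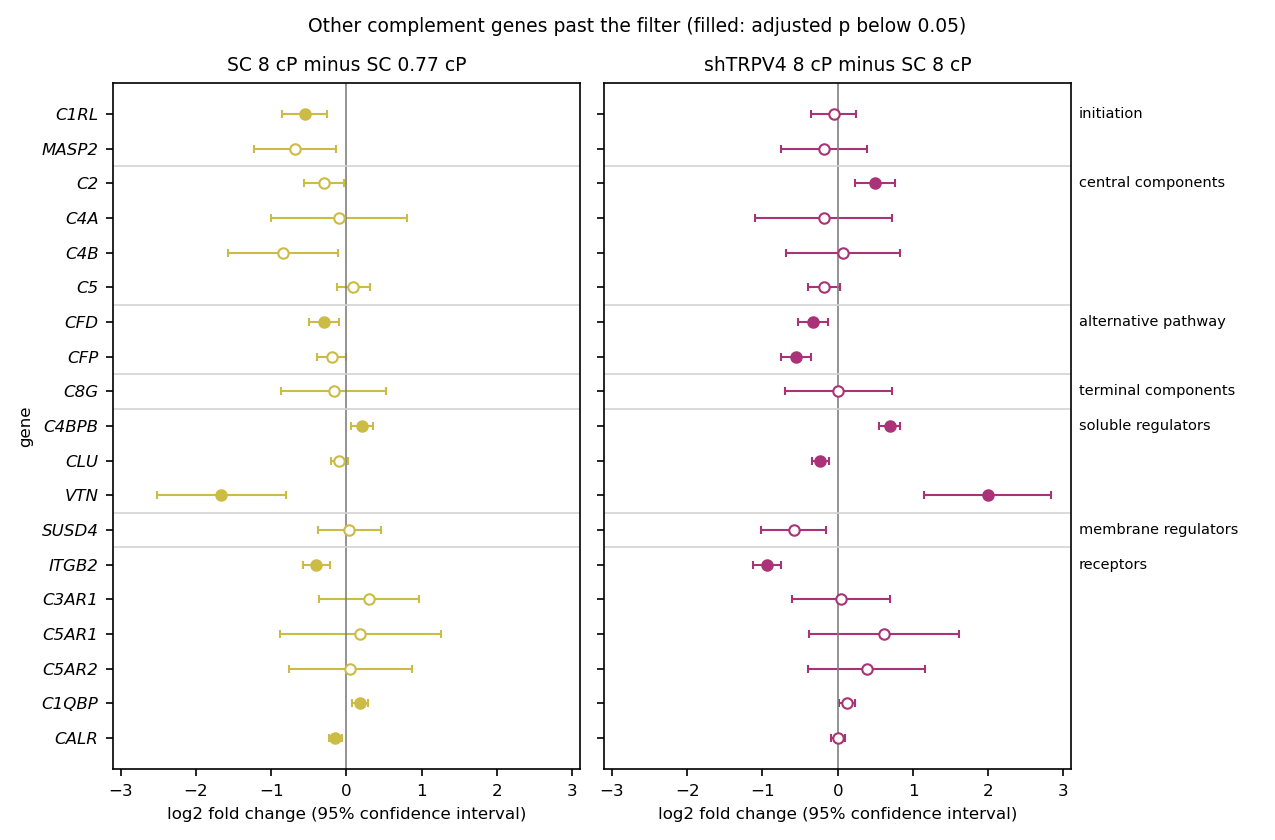
Log2 fold change (horizontal axis) with its 95% confidence interval for 19 of the 20 other complement genes that passed the filter, grouped by role, with viscosity in SC cells (left) and between shTRPV4 and SC cells at 8 cP (right); filled points have an adjusted p below 0.05. On the right, *CLU* is filled to the left of 0 and *C4BPB* and *VTN* to the right, and *VTN* changes side between the panels.

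Genes whose levels followed a member most closely were sought by Pearson's r of log2 CPM over the 9 libraries, of those averaging 100 or more counts per library. For *C3* they were *GPRC5B* (r = 0.985), *ARL1* (r = 0.972) and *PALM* (r = 0.970), and for *CFB* *ANKRD29* (r = 0.971), *PPM1M* (r = 0.967) and *CLSTN3* (r = 0.966). For *CFI* they were a gene listed only as ENSG00000216285 (r = 0.980), *GRAMD1B* (r = 0.972) and *TMTC2* (r = 0.970), and for *CD55* *DUSP23* (r = 0.981) and *MED30* (r = 0.958). No other complement gene was among them. These are the highest of 12914 or 12915 values each, over 9 libraries that fall into 3 groups, and are given as a description.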

How the data were processed

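Poly(A)-selected, strand-specific libraries of 9 MDA-MB-231 samples, 3 per group, were sequenced by the authors as paired 100-base reads. Per the study's methods and the submitters' processing notes, the authors aligned reads to GRCh38.p13 with HISAT2 2.2.1, processed alignments with SAMtools 1.1.3, and counted read pairs over Ensembl release 104 exons with HTSeq 0.13.5. The strand option is not given in the sources used here. The deposited values are raw counts per gene with no normalization. Reads over exons of overlapping genes may be left out of such counts, which can lower a level. Whether this differs between groups was not tested.

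Of 60664 gene identifiers, 60463 were matched to a symbol through GENCODE release 44 (GRCh38), from which positions, exon lengths and overlaps were also taken. Levels are CPM of the library total over the genes kept, multiplied by its TMM factor, or these CPM per kb of merged exons. Differences were tested with edgeR 4.0.16 under R 4.3.3: filterByExpr (minimum count 10, 18264 genes kept), TMM scaling, glmQLFit and glmQLFTest over all 9 samples with 1 coefficient per group, Benjamini-Hochberg correction over all genes tested, threshold 0.05. The common biological coefficient of variation was 0.0633. Ratios were compared by a 2-sided exact permutation test on log2 values. Alternatives were DESeq2 1.42.0, upper quartile scaling, library totals alone, no filter, a minimum of 10 counts in all samples, a fit to the 6 samples compared, the replicate number as a block, and each sample left out in turn.

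The 8 genes, the list of 53 other complement genes by role, the list of 17 inducers and transcription factors and the marker lists were chosen with earlier results of these data known. Named genes were the 8 members, TRPV4, at most 6 other complement genes and 3 inducers or transcription factors of smallest adjusted p per comparison, and the 3 genes most alike in pattern to CFI, CFB, C3 and CD55 (log2 CPM with a prior count of 2). Others named were picked after their values were seen: members of a short count of calls, genes at 0 counts, and markers. Some results that these rules would name are not reported here. Promoter windows are from RefSeq.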

Additional observations from a re-analysis of the deposited data

How the results depend on the processing

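For the log2 fold changes of the 8 members in the 3 comparisons, 345 values under the alternatives kept the direction and the side of the threshold, 18 lost the call, 14 gained one and 4, all of *CD55* between shTRPV4 and SC cells at 8 cP, changed sign. With viscosity in SC cells, the members called rose from 3 to 5 with no filter on low counts and to 5 with only the 6 samples compared, *C1R* and *CD55* being added. Over all genes these 2 fits called 3834 of 34549 and 3845 of 17894, against 3518 of 18264. Leaving out 1 library gave 0 to 5 members and 1 to 9 other complement genes called for that comparison, against 3 and 7. Calls over all genes ranged from 1409 to 4349 in these fits, against 3518. Between shTRPV4 and SC cells at 8 cP, leaving out 1 library gave 3 to 6 members called, against 5. Calls over all genes ranged from 2179 to 3836 there, against 3649. The log2 fold change of *CD55* in that comparison was -0.00048 with upper quartile scaling and -0.072 to 0.106 with 1 library left out, against 0.0047. The cause of these changes was not tested. *C3*, *C1S* and *CD46* between shTRPV4 and SC cells, and *CFI*, *C1R*, *C3*, *CD46* and *CD59* between the shTRPV4 and the SC 0.77 cP libraries, were called under every alternative that could test them. *C1S* in the last comparison lost its call in 4 of 9 fits with 1 library left out.

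Samples with the same replicate number did not deviate together. The correlation of their deviations from the group means was -0.05 to 0.09 in 9 pairs, against -0.11 to 0.11 for different numbers, so the numbers are not taken to pair the samples. With the replicate number as a block, 3, 5 and 6 members and 3475, 3607 and 7731 genes were called in the 3 comparisons, against 3, 5 and 6 members and 3518, 3649 and 7752 genes without it. The block ended the call of *CFD* with viscosity. Depth limited *CFI*, *VTN* and *TRPV4*, with as few as 4, 10 and 1 counts in a library.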

Other observations

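Genes that code for inducers of complement genes or for factors that bind their promoters, a list of 17 of which 15 passed the filter, were followed in the same comparisons. In SC cells, 7 of the 15 were called at 8 cP against 0.77 cP, 2 higher and 5 lower, where 19.3% of all genes tested were called, and their median log2 fold change was -0.18. *IL6*, the main cytokine inducer of acute-phase genes in the liver, was at 29.7, 36.6 and 21.6 CPM at 0.77 cP and at 4.92, 5.36 and 4.73 CPM at 8 cP, without overlap, and its log2 fold change was -2.54 (adjusted p = 3.8e-08, edgeR). *CEBPB*, a transcription factor of the acute-phase response, and *IRF1*, an interferon-induced transcription factor, were lower too, with -0.86 (adjusted p = 2.2e-06, edgeR) and -0.69 (adjusted p = 3.5e-06, edgeR). In shTRPV4 against SC cells at 8 cP, 5 of the 15 were called, 1 higher and 4 lower, where 20% of all genes were called. *OSMR*, a receptor chain for oncostatin M, was at 138, 127 and 109 CPM in SC cells and at 69.6, 76.3 and 76.7 CPM in shTRPV4 cells (log2 fold change -0.75, adjusted p = 8.9e-06, edgeR), *IL6R* gave -0.89 (adjusted p = 0.0236, edgeR), and *IL1A*, an inflammatory cytokine, was the gene called higher, with 1.43 (adjusted p = 0.00317, edgeR). *IL6* itself was not called in that comparison, with 0.42 (adjusted p = 0.0841, edgeR). Between the shTRPV4 and the SC 0.77 cP libraries, 11 of the 15 were called, 3 higher and 8 lower, where 42.4% of all genes were called. Whether these genes act on *C3*, *CFB* or any other complement gene was not tested.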
